A study of Mus musculus with 15 samples.

Results

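Messenger RNA levels were examined for 43 genes of the synaptic vesicle and its release machinery, out of 21878 gene rows in the deposited tables. The members came from a list of gene symbols and were found by an exact match of the symbol, and all 43 were present and passed the filter on low values. The tissue was prefrontal forebrain cortex of mice, sequenced as bulk RNA. There were 3 libraries from conditional presenilin double knockout mice that drank nicotine (DKO nicotine), 4 from DKO mice that drank water (DKO water), 4 from wild-type C57BL6/J mice that drank nicotine (WT nicotine) and 4 from wild-type mice that drank water (WT water). Mice were 8 months old at the start, and nicotine was given in the drinking water at 100 µg/ml for 3 months. The cortex was taken after behaviour tests, which the series text gives for all groups. The sources used here do not give the promoter or Cre line behind the conditional deletion, the strain background of the DKO mice or their sex. Libraries are numbered within a group, with no statement that each number is another animal, so p-values describe the spread among libraries, which may be technical.

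Neurotransmitter is stored in synaptic vesicles and released when a vesicle fuses with the presynaptic membrane at the active zone. Fusion is driven by SNARE proteins on the vesicle and the plasma membrane, which zip together after priming by Munc13 proteins. RIM proteins and the large scaffolds Bassoon and Piccolo hold vesicles and calcium channels at the active zone, and complexins and synaptotagmins make fusion wait for calcium. In cortex most release sites are glutamatergic and use VGLUT1, while VGLUT2 is best known from axons that arrive from the thalamus.

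The libraries held 16334904 to 19469215 reads in genes. A member's mean over the 15 libraries ran from 2.90 FPKM for Slc17a6 to 1254 FPKM for Snap25, and no member had fewer than 143 reads in a library. The targeted gene Psen2 lay at 1.36 to 1.76 FPKM in DKO nicotine and 1.28 to 1.72 in DKO water, against 5.71 to 7.05 in WT nicotine and 5.44 to 7.14 in WT water. The cortical neuron markers Tbr1 and Camk2a were expressed in every library, at no less than 27.4 and 473 FPKM. Genes of the Y chromosome set some libraries apart: the summed level of 4 such genes was 35.9, 0.233 and 36.6 FPKM in DKO nicotine, 24.3 to 33 in DKO water, 0.0909 to 0.144 in WT nicotine and 28.9 to 33 in WT water. In WT, nicotine and Y-linked expression therefore cannot be told apart, and among nicotine libraries only DKO nicotine library 2 resembled the WT nicotine libraries in this respect. In bulk tissue, fewer cells of a type and less RNA per cell cannot be told apart. Differences below are on the log2(FPKM + 1) scale, which understates the change of genes at low levels, and a gene is called higher or lower at a Benjamini-Hochberg adjusted p below 0.05 in limma over 12728 tested genes.

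In the knockout cortex all 4 SNARE genes, all 3 RIM genes, Unc13a, Pclo, Syt1 and Slc17a6 were lower under nicotine and on water, and Cplx3, Doc2a, Rab3b, Sv2a and Syn2 were higher. Some of these calls depended on the processing, as given below. Sv2a lost both calls with median-of-ratios rescaling. Vamp2 on water, and Rims3, Pclo, Cplx3 and Rab3b under nicotine, lost theirs in at least 1 alternative other than the minimum fold. Between DKO and WT on nicotine, 6 members were higher and 15 lower, and 22 were not called. All 4 Y-linked genes were called higher there, so genotype is partly confounded with Y-linked expression among the nicotine libraries. Among all tested genes 35.7% were called in this comparison, with 24.6% higher and 11% lower. Between DKO and WT on water, 7 members were higher and 20 lower, and 16 were not called, beside 38% of all tested genes, with 25.5% higher and 12.4% lower. The median difference over the 43 members was -0.044 under nicotine and -0.062 on water, against 0.062 and 0.048 over all tested genes. Lower calls thus took a larger share of the members than of all genes, and higher calls a smaller one, and this contrast was not tested. The split moved when the libraries were rescaled by median-of-ratios factors: 3 members were then higher and 22 lower under nicotine, and 5 higher and 22 lower on water. Among all genes that rescaling moved the share of calls that were higher to 45.3% from 69.0% under nicotine, and to 48% from 67.3% on water.

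**Figure D1:**
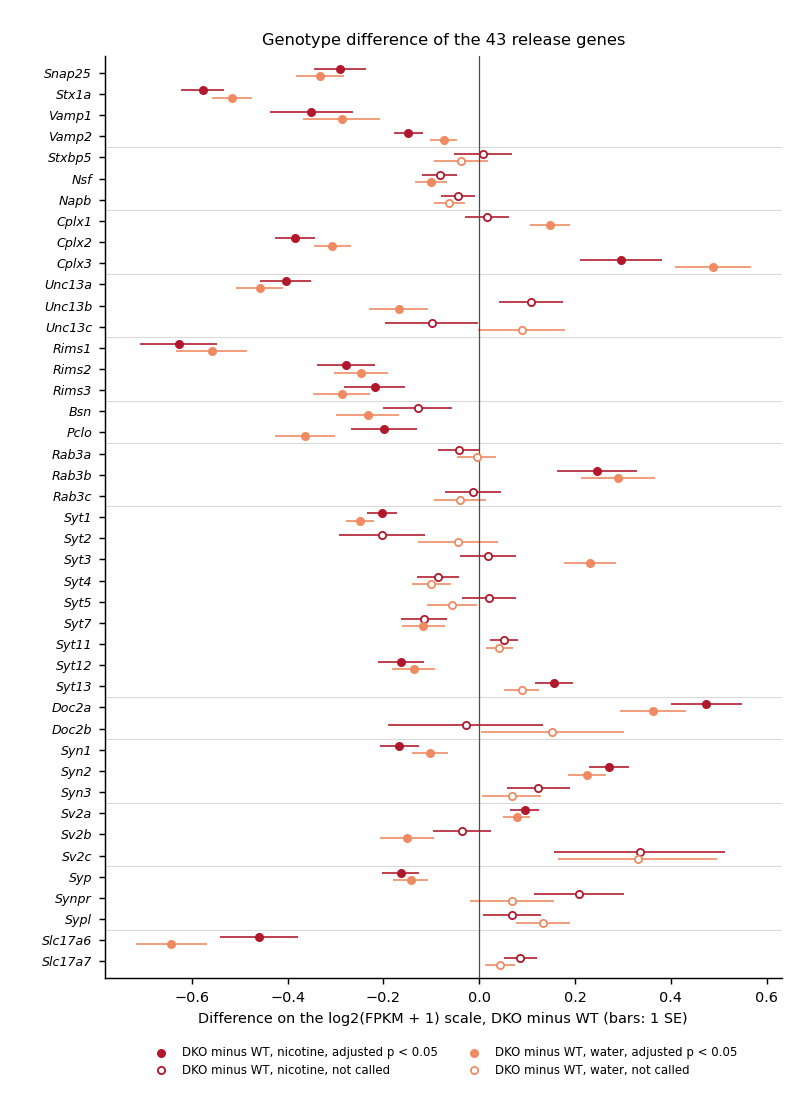
Difference between DKO and WT on the log2(FPKM + 1) scale for each of the 43 members, grouped by role, with DKO minus WT under nicotine above DKO minus WT on water. Bars are 1 SE from limma and filled points have an adjusted p below 0.05; the SNARE, RIM, Unc13a and Piccolo rows lie left of 0 in both comparisons, and Doc2a, Cplx3, Syn2, Rab3b and Sv2a lie right of 0 in both.

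The promoters of 7 members are printed because their levels, given below, were among the lowest in DKO relative to WT (Stx1a, Rims1, Unc13a) or because they belong to paralogs that moved in opposite directions (Syn1 and Syn2, Cplx1 and Cplx2). Each runs 5′ to 3′ in the direction of the gene, from 250 bases before to 50 bases after the annotated start, and comes from RefSeq on GRCm38.p6. For Cplx2 and Unc13a the start used for the window lies inside the gene span given below, not at its edge. Capitals mark the GC box GGGCGG, the Egr motif GCGNGGGCG and the cAMP response element TGACGTCA, each searched on both strands; GC box and Egr matches can overlap.
Stx1a promoter, chr5:135023232-135023531, plus strand: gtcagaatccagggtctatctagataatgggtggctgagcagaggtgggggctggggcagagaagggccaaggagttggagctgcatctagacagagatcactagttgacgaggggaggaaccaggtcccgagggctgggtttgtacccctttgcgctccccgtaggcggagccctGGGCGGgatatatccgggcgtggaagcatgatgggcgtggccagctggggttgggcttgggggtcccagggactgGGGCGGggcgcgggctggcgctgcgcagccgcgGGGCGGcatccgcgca
Rims1 promoter, chr1:22806109-22806408, minus strand: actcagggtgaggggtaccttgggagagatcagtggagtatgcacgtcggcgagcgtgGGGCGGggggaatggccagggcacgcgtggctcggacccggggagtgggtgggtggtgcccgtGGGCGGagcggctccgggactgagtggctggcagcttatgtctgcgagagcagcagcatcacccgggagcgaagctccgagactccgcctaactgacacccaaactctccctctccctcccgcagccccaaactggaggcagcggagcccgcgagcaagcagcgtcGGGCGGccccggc
Unc13a promoter, chr8:71671708-71672007, minus strand: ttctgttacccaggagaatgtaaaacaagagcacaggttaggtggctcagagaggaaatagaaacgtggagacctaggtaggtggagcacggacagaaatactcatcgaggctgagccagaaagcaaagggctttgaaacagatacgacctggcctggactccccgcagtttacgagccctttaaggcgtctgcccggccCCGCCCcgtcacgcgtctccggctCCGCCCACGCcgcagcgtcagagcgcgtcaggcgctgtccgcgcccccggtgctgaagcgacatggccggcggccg
Syn1 promoter, chrX:20920869-20921168, minus strand: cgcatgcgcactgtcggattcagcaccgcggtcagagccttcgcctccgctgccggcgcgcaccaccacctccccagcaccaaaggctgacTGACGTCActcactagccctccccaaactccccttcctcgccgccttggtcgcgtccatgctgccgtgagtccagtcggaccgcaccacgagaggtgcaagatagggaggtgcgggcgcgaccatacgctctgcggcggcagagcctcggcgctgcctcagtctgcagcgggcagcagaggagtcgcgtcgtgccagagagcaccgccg
Syn2 promoter, chr6:115134652-115134951, plus strand: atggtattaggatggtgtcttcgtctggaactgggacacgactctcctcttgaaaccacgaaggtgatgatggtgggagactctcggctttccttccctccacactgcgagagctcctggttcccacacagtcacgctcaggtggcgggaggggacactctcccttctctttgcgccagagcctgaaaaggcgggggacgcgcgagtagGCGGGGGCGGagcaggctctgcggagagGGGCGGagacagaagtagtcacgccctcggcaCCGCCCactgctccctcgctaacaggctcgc
Cplx1 promoter, chr5:108549978-108550277, minus strand: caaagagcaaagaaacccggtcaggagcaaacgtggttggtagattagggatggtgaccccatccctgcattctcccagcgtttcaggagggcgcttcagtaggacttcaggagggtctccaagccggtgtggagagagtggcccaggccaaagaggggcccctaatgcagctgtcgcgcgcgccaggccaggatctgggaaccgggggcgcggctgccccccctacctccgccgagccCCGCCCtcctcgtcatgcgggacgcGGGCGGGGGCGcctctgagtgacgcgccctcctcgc
Cplx2 promoter, chr13:54302306-54302605, plus strand: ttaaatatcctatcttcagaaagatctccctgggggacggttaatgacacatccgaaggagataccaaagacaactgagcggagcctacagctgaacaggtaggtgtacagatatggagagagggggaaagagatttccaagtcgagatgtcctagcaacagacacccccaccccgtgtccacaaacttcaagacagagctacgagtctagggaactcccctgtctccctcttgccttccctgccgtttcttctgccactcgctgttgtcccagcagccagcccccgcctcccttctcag
The Stx1a, Rims1, Unc13a, Syn2 and Cplx1 windows hold GC boxes, and those of Unc13a, Syn2 and Cplx1 hold an Egr match. The Syn1 window holds the only full cAMP response element among the member windows found. The Cplx2 window printed holds none of the 3 motifs. Promoter windows were found for 32 of the 43 members, with 42 windows in all. A GC box stood in 64.3% of the member windows, against 35.7% of all 32851 windows, an Egr match in 14.3% against 5.55%, and a cAMP response element in 2.38% against 1.79%. The member windows were also richer in G and C, at a median of 62.2% against 52.7%. These matches are a description of the letters and not of binding, and windows with and without them belonged to members that moved in the same direction.

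All 4 SNARE members were lower in DKO in both comparisons. Stx1a, which encodes the plasma membrane SNARE syntaxin 1A (gene 20907, chr5:135023482-135051100, GRCm38.p6), had 101, 103 and 90.9 FPKM in the DKO nicotine libraries, 104, 93.4, 102 and 97 in DKO water, 144, 153, 146 and 144 in WT nicotine, and 144, 144, 142 and 139 in WT water. No DKO library reached the lowest WT value, and the groups stood far apart. The difference was -0.58 (SE 0.045, limma adjusted p = 5.22e-08) under nicotine and -0.52 (SE 0.042, limma adjusted p = 6.08e-08) on water. Snap25, which encodes the partner SNARE of the plasma membrane and was the most abundant member (gene 20614, chr2:136713439-136782428), had 1188, 1104 and 1049 FPKM in the DKO nicotine libraries, 1142, 1088, 1170.0 and 1037 in DKO water, 1340.0, 1475, 1335 and 1298 in WT nicotine, and 1474, 1342, 1387 and 1385 in WT water. The DKO libraries again formed a separate, lower group, and the difference was -0.29 (SE 0.055, limma adjusted p = 0.000572) under nicotine and -0.33 (SE 0.050, limma adjusted p = 6.79e-05) on water. Vamp1, one of the vesicle SNAREs, averaged 46.9 ± 4.81 FPKM in DKO nicotine and 60.1 ± 6.54 in WT nicotine, a difference of -0.35 (SE 0.087, limma adjusted p = 0.00495), with the lowest WT library below the highest DKO library. On water it averaged 53.1 ± 4.71 in DKO and 65 ± 4.44 in WT, without overlap, a difference of -0.29 (SE 0.081, limma adjusted p = 0.00997). Vamp2, the main vesicle SNARE of the forebrain, had 511, 512 and 499 FPKM in the DKO nicotine libraries, 543, 527, 523 and 537 in DKO water, 556, 570.0, 559 and 567 in WT nicotine, and 554, 560.5, 579.9 and 549.7 in WT water. Its groups did not overlap, but the steps were small, at -0.15 (SE 0.030, limma adjusted p = 0.00114) under nicotine and -0.075 (SE 0.028, limma adjusted p = 0.0452) on water. Vamp2 lost its water call with no filter on low values, without the intensity trend, in a fit of only the groups compared and when DKO nicotine library 1, DKO water library 2, 3 or 4, WT nicotine library 1, 3 or 4 or WT water library 1, 2 or 3 was left out (adjusted p of 0.0513 to 0.141 in limma).

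Of the 3 genes that take SNARE complexes apart or hold them back, 0 were called under nicotine in limma, with 1 at an unadjusted p below 0.05, and 1 was called lower on water. Beside them, 35.7% of all tested genes were called under nicotine and 38% on water. Nsf, the ATPase that separates used SNARE complexes, averaged 272 ± 8.95 FPKM in DKO water and 292 ± 7.11 in WT water and was called lower there, at -0.10 (SE 0.033, limma adjusted p = 0.0245). Under nicotine it averaged 262 ± 8.64 in DKO and 278 ± 6.74 in WT and was not called (-0.083, adjusted p = 0.0836). Nsf lost its water call when DKO water library 2 or WT water library 1, 3 or 4 was left out (adjusted p of 0.0508 to 0.0922 in limma). Napb, an adaptor of Nsf, and Stxbp5, the SNARE inhibitor tomosyn, were called in neither comparison, with differences between -0.062 and 0.008.

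**Figure D2:**
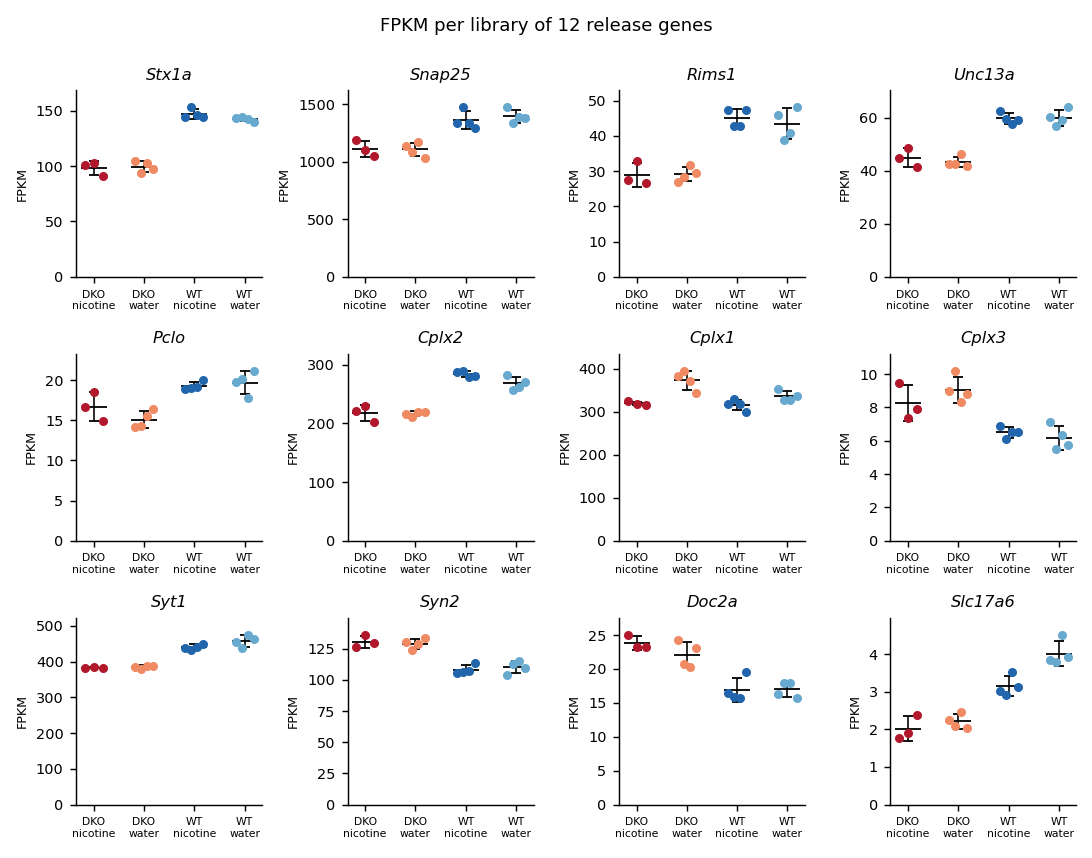
FPKM in each library for 12 members, with DKO nicotine, DKO water, WT nicotine and WT water from left to right. Points are libraries, long bars the mean and short bars 1 SD (n = 3 for DKO nicotine and 4 for each other group); DKO libraries lie below WT libraries for Stx1a, Snap25, Rims1, Unc13a, Cplx2, Syt1 and Slc17a6, and above them for Cplx3, Syn2 and Doc2a.

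The complexins, small proteins that bind the assembled SNARE complex and both restrain and promote fusion, did not move together. Cplx2 (gene 12890, chr13:54301964-54383923) had 221, 229 and 203 FPKM in the DKO nicotine libraries, 216, 211, 219.5 and 219.8 in DKO water, 288, 289, 279 and 280.5 in WT nicotine, and 284, 258, 262 and 271 in WT water. All DKO libraries were lower than all WT libraries, at -0.38 (SE 0.042, limma adjusted p = 2.55e-06) under nicotine and -0.31 (SE 0.039, limma adjusted p = 1.01e-05) on water. Cplx1 (gene 12889, chr5:108518554-108550027), the other abundant complexin, had 324, 318 and 316 FPKM in the DKO nicotine libraries, 384, 394, 370.4 and 343 in DKO water, 318, 329, 317 and 299.8 in WT nicotine, and 353, 328, 328 and 337 in WT water. DKO water stood highest, overlapping WT water, and the other groups were close together. Cplx1 was higher in DKO than in WT on water, at 0.15 (SE 0.042, limma adjusted p = 0.011), and was not called under nicotine, at 0.016 (SE 0.045, limma adjusted p = 0.813). Cplx1 lost its water call with median-of-ratios rescaling (adjusted p = 0.126 in limma). Cplx3, a complexin with few transcripts in cortex (gene 235415, chr9:57599992-57606281), had 9.48, 7.38 and 7.92 FPKM in the DKO nicotine libraries, 8.96, 10.2, 8.3 and 8.78 in DKO water, 6.89, 6.1, 6.53 and 6.54 in WT nicotine, and 7.15, 5.53, 6.32 and 5.72 in WT water. Every DKO library exceeded every WT library, by 0.30 (SE 0.086, limma adjusted p = 0.0127) under nicotine and 0.49 (SE 0.079, limma adjusted p = 0.00013) on water. Without DKO nicotine library 1 the nicotine difference of Cplx3 was 0.20 and no longer called (limma adjusted p = 0.0883).

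All 3 RIM genes, Unc13a and Pclo were lower in DKO in both comparisons, with the largest steps in Rims1 and Unc13a. Rims1, which encodes RIM1, the active zone protein that links Rab3 on vesicles to Munc13 and calcium channels (gene 116837, chr1:22285972-22806158), had 27.4, 32.8 and 26.5 FPKM in the DKO nicotine libraries, 26.9, 28.4, 31.8 and 29.5 in DKO water, 47.3, 42.7, 42.9 and 47.4 in WT nicotine, and 46.1, 38.9, 40.9 and 48.1 in WT water. The DKO values stayed under the lowest WT value, and the difference was -0.63 (SE 0.080, limma adjusted p = 1.46e-05) under nicotine and -0.56 (SE 0.074, limma adjusted p = 1.73e-05) on water. Unc13a, which encodes Munc13-1, the main priming factor of forebrain glutamate synapses (gene 382018, chr8:71624125-71671774), had 44.8, 48.6 and 41.5 FPKM in the DKO nicotine libraries, 42.6, 42.7, 46.2 and 41.9 in DKO water, 62.6, 59.5, 57.8 and 59 in WT nicotine, and 60.2, 56.7, 59 and 63.9 in WT water. There was again no overlap, with -0.40 (SE 0.053, limma adjusted p = 1.85e-05) under nicotine and -0.46 (SE 0.049, limma adjusted p = 1.64e-06) on water. DKO nicotine library 2, the one with little Y-linked expression, was the highest of its group for both genes and lay below all 4 WT nicotine libraries. The part of Y-linked expression in Rims1 and Unc13a was not tested. Rims2, the second long RIM, averaged 7.8 ± 0.499 FPKM in DKO nicotine, 8.11 ± 0.574 in DKO water, 9.67 ± 0.54 in WT nicotine and 9.81 ± 0.494 in WT water, and was called lower under nicotine and on water, at -0.28 (SE 0.060, limma adjusted p = 0.00188) and -0.25 (SE 0.056, limma adjusted p = 0.00224) without overlap.

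Rims3, a short RIM that lacks the Rab3-binding part (gene 242662, chr4:120854779-120896580), had 37.5, 42.5 and 38.2 FPKM in the DKO nicotine libraries, 43.6, 38.9, 44.3 and 39.4 in DKO water, 48.8, 48.9, 45.8 and 40.6 in WT nicotine, and 51.7, 50.3, 51.6 and 49.9 in WT water. WT water was highest and WT nicotine overlapped DKO nicotine at its low end. The difference was -0.22 (SE 0.063, limma adjusted p = 0.013) under nicotine and -0.29 (SE 0.059, limma adjusted p = 0.000998) on water. Rims3 lost its nicotine call when DKO nicotine library 1 or 3 was left out (adjusted p of 0.0562 to 0.0622 in limma). Pclo, which encodes the scaffold Piccolo (gene 26875, chr5:14514906-14863465), had 16.7, 18.6 and 14.9 FPKM in the DKO nicotine libraries, 14.2, 14.3, 15.5 and 16.4 in DKO water, 18.9, 19, 19.2 and 20.1 in WT nicotine, and 19.8, 20.1, 17.8 and 21.1 in WT water. DKO lay below WT in both comparisons, closely so under nicotine. The difference was -0.20 (SE 0.068, limma adjusted p = 0.0316) under nicotine and -0.36 (SE 0.063, limma adjusted p = 0.000246) on water. Pclo lost its nicotine call when DKO nicotine library 1 or 3 or WT nicotine library 3 or 4 was left out (adjusted p of 0.0529 to 0.196 in limma). Bsn, which encodes the related scaffold Bassoon, was called lower on water, at -0.23 (SE 0.066, limma adjusted p = 0.0105), and was not called under nicotine, at -0.13 (SE 0.072, limma adjusted p = 0.174), where DKO nicotine library 2 held 43.5 FPKM and the other DKO libraries 34.7 and 33.9.

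Unc13b and Unc13c were less abundant than Unc13a. Unc13b, which encodes Munc13-2 (gene 22249, chr4:43046193-43264873), had 8.47, 8.8 and 7.45 FPKM in the DKO nicotine libraries, 7.17, 6.38, 6.51 and 7.03 in DKO water, 7.92, 7.26, 7.66 and 7.39 in WT nicotine, and 7.82, 7.95, 6.81 and 8.4 in WT water. DKO water lay lowest on average, and DKO nicotine libraries 1 and 2 were the highest of all. On water Unc13b was called lower in DKO, at -0.17 (SE 0.062, limma adjusted p = 0.041). Unc13b lost its water call with no filter on low values, in a fit of only the groups compared and when DKO water library 2 or 3 or WT water library 1, 2 or 4 was left out (adjusted p of 0.0518 to 0.132 in limma). Under nicotine it was not called, at 0.11 (SE 0.067, limma adjusted p = 0.221). Unc13c, which encodes Munc13-3 and is best known from cerebellum, lay between 2.87 and 4.38 FPKM over all libraries and was not called. Among the Rab3 GTPases, which mark vesicles and bind RIM, Rab3a was the most abundant, with 327, 295 and 309 FPKM in the DKO nicotine libraries, 348, 328, 317 and 329 in DKO water, 298, 327, 327 and 327 in WT nicotine, and 329, 331, 336 and 332 in WT water. The groups overlapped, and it was not called. Rab3c was not called either. Rab3b was called higher in DKO in both comparisons, at 0.25 (SE 0.084, limma adjusted p = 0.0302) under nicotine and 0.29 (SE 0.077, limma adjusted p = 0.00721) on water. Rab3b lost its nicotine call with median-of-ratios rescaling, with no filter on low values, in a fit of only the groups compared and when DKO nicotine library 1 or 3 or WT nicotine library 1 or 3 was left out (adjusted p of 0.0502 to 0.198 in limma).

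Of the 9 synaptotagmins, membrane proteins of which several sense calcium, 1 was higher and 2 lower under nicotine, and 1 was higher and 3 lower on water. These counts were near the share of all tested genes called, 35.7% under nicotine and 38% on water. Syt1, the fast calcium sensor of forebrain vesicles (gene 20979, chr10:108497650-109010980), had 382, 385 and 383 FPKM in the DKO nicotine libraries, 384, 379, 389 and 388 in DKO water, 439, 433, 442 and 449.9 in WT nicotine, and 456, 437, 475 and 464 in WT water. The DKO values were tightly grouped and all below WT, with a difference of -0.20 (SE 0.032, limma adjusted p = 0.000116) under nicotine and -0.25 (SE 0.029, limma adjusted p = 4.9e-06) on water. Syt12, a synaptotagmin without the calcium-binding residues (gene 171180, chr19:4445908-4477143), had 11.9, 11.6 and 11.5 FPKM in the DKO nicotine libraries, 12.4, 13.7, 12.6 and 12.7 in DKO water, 13.5, 13, 13 and 13.3 in WT nicotine, and 14.2, 15.2, 13.1 and 14.5 in WT water. Under nicotine the groups stood apart, at -0.16 (SE 0.048, limma adjusted p = 0.0141), and on water they overlapped, at -0.14 (SE 0.044, limma adjusted p = 0.0224). Syt12 lost its water call in a fit of only the groups compared and when DKO water library 1 or 3 or WT water library 2 or 4 was left out (adjusted p of 0.0504 to 0.0785 in limma). Syt12 lost its nicotine call when DKO nicotine library 3 was left out (adjusted p = 0.0538 in limma). Syt3, a calcium sensor of high affinity (gene 20981, chr7:44382773-44400030), had 13.2, 12.6 and 11.2 FPKM in the DKO nicotine libraries, 12.8, 12.9, 13.7 and 14.3 in DKO water, 11.6, 12.5, 12.9 and 11.7 in WT nicotine, and 11.1, 11.1, 11 and 11.9 in WT water. It was called higher in DKO on water, without overlap, at 0.23 (SE 0.054, limma adjusted p = 0.00287), and was not called under nicotine, at 0.018 (SE 0.058, limma adjusted p = 0.84). Syt7, the sensor of slow and sustained release, was called lower on water, at -0.12 (SE 0.045, limma adjusted p = 0.0482). Syt7 lost its water call with no filter on low values, without the intensity trend and when DKO water library 1, 2 or 3, WT nicotine library 1, 2, 3 or 4 or WT water library 2, 3 or 4 was left out (adjusted p of 0.0543 to 0.143 in limma). Syt13 was called higher under nicotine, at 0.16 (SE 0.040, limma adjusted p = 0.0062). Syt13 lost its nicotine call with median-of-ratios rescaling (adjusted p = 0.198 in limma). Syt4 lay below WT without overlap in both comparisons but was not called, at -0.085 (SE 0.044, limma adjusted p = 0.138) under nicotine and -0.10 (SE 0.040, limma adjusted p = 0.0603) on water. Syt2, Syt5 and Syt11 were not called in either comparison.

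Doc2a, which encodes a cytosolic calcium sensor with domains like those of synaptotagmin and a role in spontaneous and delayed release (gene 13446, chr7:126846983-126852705), had 25, 23.2 and 23.2 FPKM in the DKO nicotine libraries, 24.2, 20.8, 20.3 and 23.1 in DKO water, 16.4, 15.9, 15.8 and 19.6 in WT nicotine, and 16.4, 17.9, 18 and 15.7 in WT water. All DKO libraries lay above all WT libraries, and WT nicotine library 4 was apart from the other WT nicotine libraries. The difference was 0.47 (SE 0.075, limma adjusted p = 0.000124) under nicotine and 0.36 (SE 0.069, limma adjusted p = 0.000595) on water, and it kept its call under every alternative run. Its relative Doc2b had 2.92 to 3.59 FPKM in DKO nicotine, 3.41 to 5.16 in DKO water, 2.56 to 4.4 in WT nicotine and 3.24 to 5.22 in WT water, with overlap throughout, and was not called.

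The synapsins, phosphoproteins that tether vesicles in the reserve pool, split by paralog. Syn2 (gene 20965, chr6:115134902-115282626) had 126, 136 and 129.6 FPKM in the DKO nicotine libraries, 130.1, 124, 129 and 133 in DKO water, 105, 107, 107 and 114 in WT nicotine, and 104, 112, 115 and 109.9 in WT water. The DKO libraries were all higher, by 0.27 (SE 0.042, limma adjusted p = 0.000107) under nicotine and 0.22 (SE 0.039, limma adjusted p = 0.000246) on water. Syn1 (gene 20964, chrX:20860511-20920918) had 260.5, 271 and 244 FPKM in the DKO nicotine libraries, 274, 262, 271 and 276 in DKO water, 289, 291, 279.5 and 301 in WT nicotine, and 286, 286, 307 and 286 in WT water. It was lower in DKO without overlap, at -0.17 (SE 0.040, limma adjusted p = 0.00411) under nicotine and -0.10 (SE 0.037, limma adjusted p = 0.0384) on water. WT water library 3 was the highest of all. Syn1 lost its water call with no filter on low values, without the intensity trend and when DKO water library 1, 2 or 3 or WT water library 3 or 4 was left out (adjusted p of 0.0509 to 0.131 in limma). Syn3, the scarce synapsin, was not called in either comparison.

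Of the 6 physin and SV2 genes of the vesicle membrane, Syp was called lower in both comparisons, Sv2a higher in both and Sv2b lower on water. Syp, which encodes synaptophysin, the abundant vesicle protein that binds Vamp2, averaged 572 ± 24.7 FPKM in DKO nicotine, 576 ± 15.9 in DKO water, 641 ± 19.1 in WT nicotine and 637 ± 21.3 in WT water. It was lower in DKO without overlap, at -0.16 (SE 0.039, limma adjusted p = 0.00383) under nicotine and -0.14 (SE 0.036, limma adjusted p = 0.00519) on water. Its relatives Synpr and Sypl were not called. Sv2a, a vesicle glycoprotein and the target of the antiseizure drug levetiracetam, had 146, 142 and 142 FPKM in the DKO nicotine libraries, 149.7, 149, 152 and 147 in DKO water, 134, 131, 135 and 137 in WT nicotine, and 140.4, 138, 147 and 140.3 in WT water. DKO nicotine lay above WT nicotine, and DKO water overlapped WT water. Sv2a was called higher by small steps, at 0.095 (SE 0.031, limma adjusted p = 0.0258) under nicotine and 0.078 (SE 0.029, limma adjusted p = 0.042) on water. Sv2a lost its nicotine call with median-of-ratios rescaling, without the intensity trend, in a fit of only the groups compared and when DKO nicotine library 1 or WT nicotine library 2 was left out (adjusted p of 0.0566 to 0.779 in limma). Sv2a lost its water call with median-of-ratios rescaling, without the intensity trend, in a fit of only the groups compared and when DKO water library 1, 2 or 3, WT nicotine library 3 or WT water library 1, 2 or 4 was left out (adjusted p of 0.0557 to 0.777 in limma). Sv2b was called lower on water, at -0.15 (SE 0.056, limma adjusted p = 0.0435), and was not called under nicotine (-0.036, adjusted p = 0.682). Sv2b lost its water call with no filter on low values, without the intensity trend and when DKO nicotine library 3, DKO water library 1, 2 or 4, WT nicotine library 1 or WT water library 3 or 4 was left out (adjusted p of 0.0501 to 0.166 in limma). Sv2c had 3.15, 3.77 and 5.16 FPKM in the DKO nicotine libraries, 3.46, 6.18, 3.74 and 6.72 in DKO water, 2.85, 2.18, 3.05 and 3.83 in WT nicotine, and 3.45, 3.77, 3.72 and 3.68 in WT water, and was not called, at 0.33 (SE 0.18, limma adjusted p = 0.157) under nicotine and 0.33 (SE 0.17, limma adjusted p = 0.128) on water. Its highest values were in DKO water libraries 4 and 2, the same pair in which the summed level of 9 striatal markers was highest, at 392 and 405 FPKM against 164 to 236 in WT water. DKO water library 1 and DKO nicotine library 1 also had high striatal sums, at 325 and 284 FPKM, and were the lowest of their groups in Sv2c. DKO nicotine library 3 had a similar striatal sum, at 282 FPKM, and was the highest of its group in Sv2c. The part of striatal RNA in the Sv2c values was not tested.

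The minor vesicular glutamate transporter of cortex was lower in DKO, and the major one was not called. Slc17a6, which encodes VGLUT2 (gene 140919, chr7:51621830-51671126), had 1.77, 1.9 and 2.39 FPKM in the DKO nicotine libraries, 2.25, 2.1, 2.46 and 2.03 in DKO water, 3.02, 2.9, 3.52 and 3.13 in WT nicotine, and 3.83, 3.79, 4.51 and 3.94 in WT water. Every DKO library was lower than every WT library, and in WT every nicotine library was lower than every water library. The genotype difference was -0.46 (SE 0.080, limma adjusted p = 0.000315) under nicotine and -0.64 (SE 0.074, limma adjusted p = 4.04e-06) on water. Slc17a7, which encodes VGLUT1, averaged 564 ± 6.5 FPKM in DKO nicotine and 569 ± 15.1 in DKO water, against 531 ± 8.48 in WT nicotine and 552 ± 19.7 in WT water, and was not called, at 0.085 (SE 0.034, limma adjusted p = 0.0632) under nicotine and 0.043 (SE 0.032, limma adjusted p = 0.306) on water. A set of 9 markers of thalamus and other subcortical regions, of which 7 were tested, overlapped between genotypes in its sum, which was 28.5 to 33 FPKM in DKO nicotine, 27.5 to 33.4 in DKO water, 22.8 to 37.5 in WT nicotine and 23.6 to 43.2 in WT water. In that set 2 were higher and 0 lower under nicotine, and on water Prkcd was higher and Ntng1 lower. Their part in the Slc17a6 values was not tested.

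Shares within a gene family do not depend on how libraries are scaled and are given here as a description. Syn2 made up 32.3 to 34.4% of summed synapsin FPKM in DKO nicotine and 31.8 to 32.4% in DKO water, against 26.5 to 27.5% in WT nicotine and 26.4 to 28% in WT water. Cplx1 made up 57.37 to 59.97% of complexin FPKM in DKO nicotine and 60.03 to 64.04% in DKO water, against 51.09 to 52.72% in WT nicotine and 54.87 to 55.51% in WT water. The Cplx1 share was above WT in DKO, and within each genotype the nicotine libraries lay below the water libraries. Rims1 held 36.8 to 39.2% of RIM FPKM in DKO nicotine and 34.4 to 38.1% in DKO water, against 42.4 to 48.6% in WT nicotine and 39.5 to 44.4% in WT water. Syt1 held 44.1 to 44.5% and 44.1 to 44.9% of synaptotagmin FPKM in DKO nicotine and DKO water, against 47.7 to 48.5% and 47.5 to 49.4% in WT nicotine and WT water. Among Munc13 genes the share of Unc13b was 14.2 to 15.1% in DKO nicotine and 11.7 to 13.4% in DKO water, against 10.4 to 11.1% in WT nicotine and 9.91 to 11.7% in WT water. The DKO and WT ranges of these shares did not overlap under nicotine, and on water only those of Unc13b did. Not every paralog separated in this way. The shares of Rab3a, Rab3c, Vamp1, Vamp2 and Sv2c, among others, overlapped in both comparisons. Those of Sv2a, Sv2b, Bsn and Pclo overlapped under nicotine but not on water. A general shift between paralogs was not tested.

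**Figure D3:**
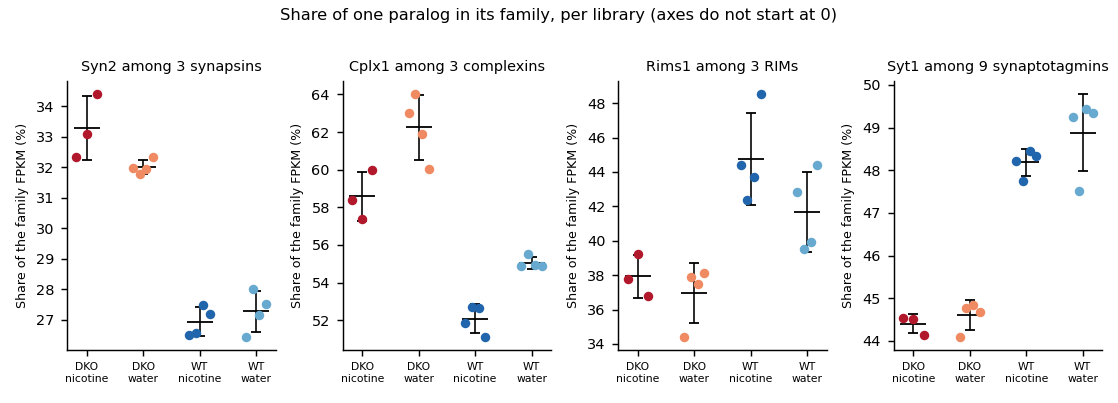
Share of 1 paralog in the summed FPKM of its family in each library, for Syn2, Cplx1, Rims1 and Syt1, with DKO nicotine, DKO water, WT nicotine and WT water from left to right. Points are libraries, long bars the mean and short bars 1 SD, and the axes do not start at 0; Syn2 and Cplx1 shares are higher and Rims1 and Syt1 shares lower in DKO than in WT.

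The comparisons of DKO with WT under nicotine and on water take their differences from separate libraries, so these can be set against each other. Both rest on 1 fit with a shared estimate of spread, so their calls are not independent. Of the members called lower, 15 were shared, which is 100% of the 15 under nicotine and 75% of the 20 on water, against 76.4% and 67.8% of the lower calls among all tested genes. Of those called higher, 5 were shared (Cplx3, Doc2a, Rab3b, Sv2a and Syn2), which is 83.3% of the 6 under nicotine and 71.4% of the 7 on water, against 73.5% and 70.8% of the higher calls among all tested genes. The sign of the difference was the same for 38 of the 43 members and opposite for 5, and it was the same for 81.7% of all tested genes. As a description across members, which share libraries and are not independent, Pearson's r was 0.909 and Spearman's rho 0.872, against 0.893 and 0.81 across all tested genes. Without overlap between libraries in both comparisons, 14 members (32.6%) lay below WT and 3 (6.98%) above, against 8.04% and 15.9% of all tested genes. Agreement between the comparisons was thus common to the genes at large, and no difference from them was tested. Groups did not overlap for 23 members under nicotine, beside 37.7% of all tested genes, and for 22 on water, beside 36.5%. DKO nicotine library 2 resembled WT nicotine in its low Y-linked expression. It lay below every WT nicotine library for 14 of the 15 members called lower (all but Rims3) and above them for 5 of the 6 called higher (all but Rab3b). The calls themselves used this library, so its side was largely fixed by them. The part of Y-linked expression in these differences was not tested. Without DKO nicotine library 2, 24 members were called, 6 higher and 18 lower. Among all tested genes 4415 were then called, 3062 higher and 1353 lower, against 4538 with all libraries.

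No member was called between nicotine and water in either genotype. In DKO, nicotine against water gave 0 called members in limma, with 6 at an unadjusted p below 0.05, beside 0.157% of all tested genes called and 13.9% at an unadjusted p below 0.05. A fit with voom on recovered reads called 2. In WT there were also 0 called members, with 7 at an unadjusted p below 0.05, beside 0.173% and 8.7% of all tested genes, and voom also called 0. Each of these comparisons shares libraries with the genotype comparisons. Beside them, the summed level of the striatal markers was 195 to 284 FPKM in DKO nicotine and 237 to 405 in DKO water, against 169 to 298 in WT nicotine and 164 to 236 in WT water, and its part in the members' values was not tested. The data bound the difference between nicotine and water libraries for most members. The 95% interval lay within 0.32 on the log2 scale in either direction for 36 members in DKO and 39 in WT. In WT that difference cannot be told apart from the difference in Y-linked expression. In DKO it is partly confounded, because nicotine library 2 had a Y-linked sum of 0.233 FPKM and the water libraries 24.3 to 33. The intervals of Sv2c and Doc2b were the widest in both genotypes, at -0.62 to 0.14 and -0.65 to 0.031 in DKO and -0.59 to 0.11 and -0.45 to 0.19 in WT.

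**Figure D4:**
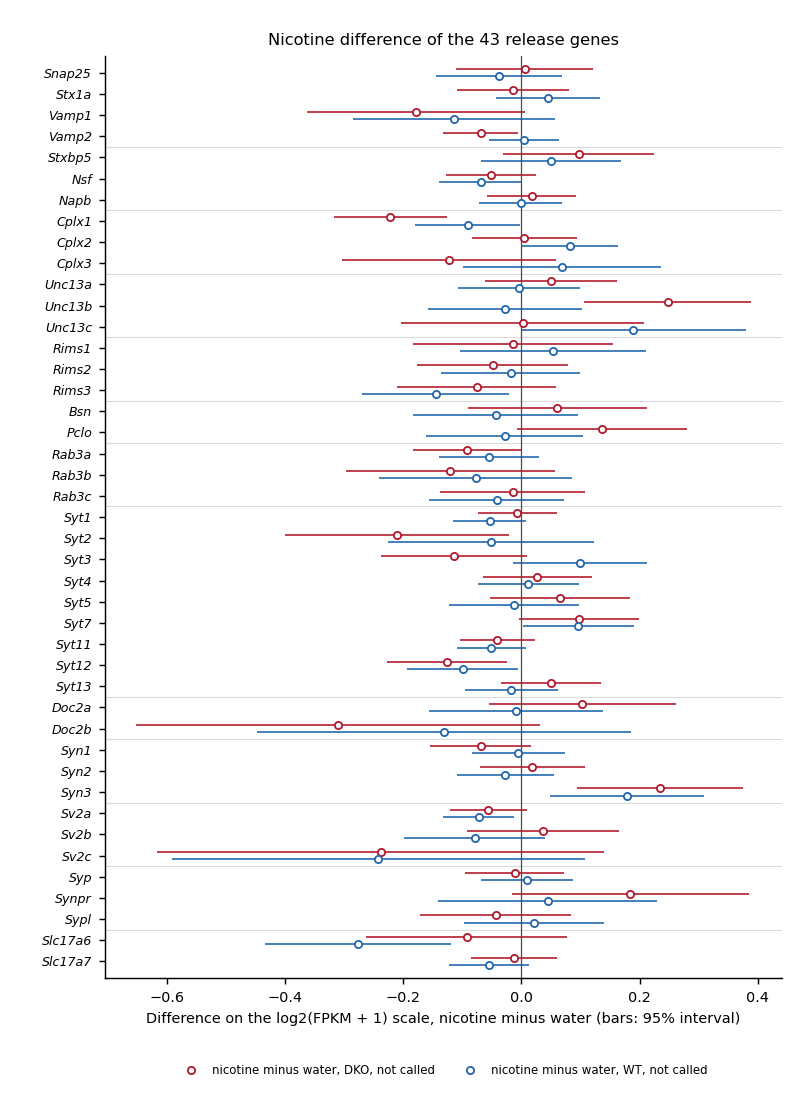
Difference between nicotine and water on the log2(FPKM + 1) scale for each of the 43 members, grouped by role, with DKO above WT. Bars are 95% intervals from limma, and no member had an adjusted p below 0.05; Cplx1, Unc13b and Syn3 in DKO and Slc17a6 and Syn3 in WT lie farthest from 0 relative to their intervals.

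A few members came near the threshold, and their values in each library stand above unless given here. Cplx1 in DKO had every nicotine library below every water library, with a difference of -0.22 (95% interval -0.32 to -0.13, limma adjusted p = 0.0665). It passed the threshold with median-of-ratios rescaling (adjusted p = 0.043), with voom on recovered reads (adjusted p = 0.0262) and without DKO water library 4 (adjusted p = 0.0279), while with only the groups compared the adjusted p was 0.309. In WT the Cplx1 difference was -0.091 (adjusted p = 0.56). Unc13b in DKO was at 0.25 (95% interval 0.11 to 0.39, adjusted p = 0.133), with all nicotine libraries above all water libraries. Syn3 (gene 27204, chr10:86048746-86498926) had 4.01, 3.86 and 3.27 FPKM in the DKO nicotine libraries, 2.69, 3.0, 3.07 and 3.24 in DKO water, 3.33, 3.31, 3.13 and 3.5 in WT nicotine, and 2.77, 2.73, 2.76 and 3.0 in WT water. In both genotypes the nicotine libraries lay above the water libraries, by 0.23 in DKO (95% interval 0.094 to 0.38, adjusted p = 0.152) and 0.18 in WT (95% interval 0.049 to 0.31, adjusted p = 0.421). With voom on recovered reads Syn3 was called higher in DKO (adjusted p = 0.045).

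Slc17a6 in WT was at -0.28 (95% interval -0.43 to -0.12, adjusted p = 0.242), the smallest p of a member in that genotype, and at -0.093 in DKO (adjusted p = 0.661). Rims3 in WT was at -0.14 (adjusted p = 0.502) and Sv2a at -0.072 (adjusted p = 0.493), both without overlap between WT nicotine and WT water libraries. Syt2, a fast calcium sensor best known from inhibitory and subcortical neurons, was at -0.21 in DKO (adjusted p = 0.311), with 8.5, 8.66 and 9.0 FPKM in the DKO nicotine libraries, 9.48, 11.3, 10.4 and 9.93 in DKO water, 11.5, 11.2, 9.47 and 8.88 in WT nicotine, and 12.3, 10.01, 9.26 and 11.1 in WT water. The DKO nicotine libraries lay below the DKO water libraries, and the WT groups overlapped. Syt12 was at -0.13 in DKO (adjusted p = 0.265) and -0.10 in WT (adjusted p = 0.542). Groups did not overlap for 7 members in DKO, beside 10.9% of all tested genes, and for 6 in WT, beside 5.8%.

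The test of the interaction, the nicotine difference in DKO minus that in WT, called 0 members in limma, with 2 at an unadjusted p below 0.05, beside 0.0157% of all tested genes called and 6.9% at an unadjusted p below 0.05, and voom called 0 members. Those 2 were Unc13b, at 0.28 (95% interval 0.084 to 0.47, adjusted p = 0.657), and Syt3, at -0.21 (95% interval -0.38 to -0.045, adjusted p = 0.657). Cplx1 was at -0.13 (adjusted p = 0.716), Vamp2 at -0.074 (adjusted p = 0.757) and Pclo at 0.17 (adjusted p = 0.759). The WT part of the interaction likewise cannot be told apart from Y-linked expression, and the DKO part is partly confounded with it. The interval lay within 0.32 in either direction for 32 members. Members called in only 1 of the genotype comparisons, such as Syt3, Cplx1, Bsn and Unc13b, were therefore not shown to differ between nicotine and water.

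Other genes of the same pathway were taken from lists that do not hold the members, and their counts stand beside the 35.7% of all tested genes called under nicotine and 38% on water. Among SNARE proteins and their partners, 15 of 16 present were tested: 2 were higher and 3 lower in DKO under nicotine, and 4 higher and 6 lower on water. Snap23, the widely expressed relative of Snap25, was higher under nicotine and on water, at 0.33 (SE 0.058, limma adjusted p = 0.000359) and 0.33 (SE 0.054, limma adjusted p = 0.00015). Of 22 active zone and priming genes, 2 were higher and 8 lower under nicotine, and 4 higher and 11 lower on water. Rph3a, which encodes the Rab3 effector rabphilin, averaged 88.9 ± 4.85 and 91 ± 6.36 FPKM in DKO nicotine and DKO water, against 144 ± 3.86 and 139.6 ± 3.74 in WT nicotine and WT water, and was called lower, at -0.69 (SE 0.050, limma adjusted p = 2.15e-08) under nicotine and -0.61 (SE 0.046, limma adjusted p = 2.71e-08) on water. Cadps2, a priming factor of dense-core vesicles, was lower too, at -0.51 (SE 0.048, limma adjusted p = 4.41e-07) under nicotine and -0.63 (SE 0.044, limma adjusted p = 1.22e-08) on water.

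Of 19 tested vesicle membrane proteins, transporters and proton pump subunits, 2 were higher and 3 lower under nicotine, and 3 higher and 3 lower on water. Slc30a3, the zinc transporter of glutamatergic vesicles, was lower, at -0.41 (SE 0.042, limma adjusted p = 1.31e-06) under nicotine and -0.41 (SE 0.039, limma adjusted p = 4.52e-07) on water. Slc17a8, which encodes the glutamate transporter VGLUT3, averaged 1.85 ± 0.314 FPKM in DKO water and 1.11 ± 0.122 in WT water and was called higher there, at 0.43 (SE 0.11, limma adjusted p = 0.00537), and was not called under nicotine, at 0.20 (SE 0.12, limma adjusted p = 0.19). Of 26 genes of vesicle endocytosis and recycling, 5 were higher and 4 lower in each comparison, close to the share among all tested genes. Amph, which encodes the endocytic protein amphiphysin, was higher, at 0.34 (SE 0.033, limma adjusted p = 5.89e-07) under nicotine and 0.26 (SE 0.030, limma adjusted p = 3.92e-06) on water. Fcho1, an early endocytic adaptor, was lower, at -0.32 (SE 0.047, limma adjusted p = 6.31e-05) under nicotine and -0.34 (SE 0.043, limma adjusted p = 9.61e-06) on water. Of 7 tested synaptotagmins outside the members, 1 was higher and 2 lower under nicotine, and 1 higher and 3 lower on water. Syt16, an atypical synaptotagmin, was lower, at -0.41 (SE 0.045, limma adjusted p = 2.78e-06) under nicotine and -0.48 (SE 0.042, limma adjusted p = 1.32e-07) on water.

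Markers of cell types moved with genotype beside the members. The summed level of the 43 members was 5876 to 6127 FPKM in DKO nicotine and 6032 to 6259 in DKO water, against 6520.0 to 6740.0 in WT nicotine and 6613 to 6821 in WT water, without overlap between genotypes. The sum of 12 excitatory neuron markers was 1413 to 1616 and 1454 to 1591 FPKM in DKO nicotine and DKO water, against 2079 to 2280.0 and 2001 to 2089 in WT nicotine and WT water. Of these markers 7 were lower in each comparison, and 1 was higher under nicotine and 0 on water. Of 10 inhibitory neuron markers, 6 were higher and 0 lower under nicotine, and 8 higher and 0 lower on water, and their sums were 942 to 1124 and 1016 to 1150.0 FPKM in DKO nicotine and DKO water against 913 to 1008 and 876 to 972 in WT nicotine and WT water. The sum of 12 pan-neuronal markers overlapped between genotypes, at 1712 to 1872 and 1745 to 1836 FPKM in DKO nicotine and DKO water against 1752 to 1803 and 1784 to 1819 in WT nicotine and WT water. Its members moved in both directions, with 1 higher and 3 lower under nicotine (Nefm, Nefl and Rbfox3 lower), and 3 higher and 4 lower on water (Nefm, Nefl, Rbfox3 and Map2 lower).

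**Figure D5:**
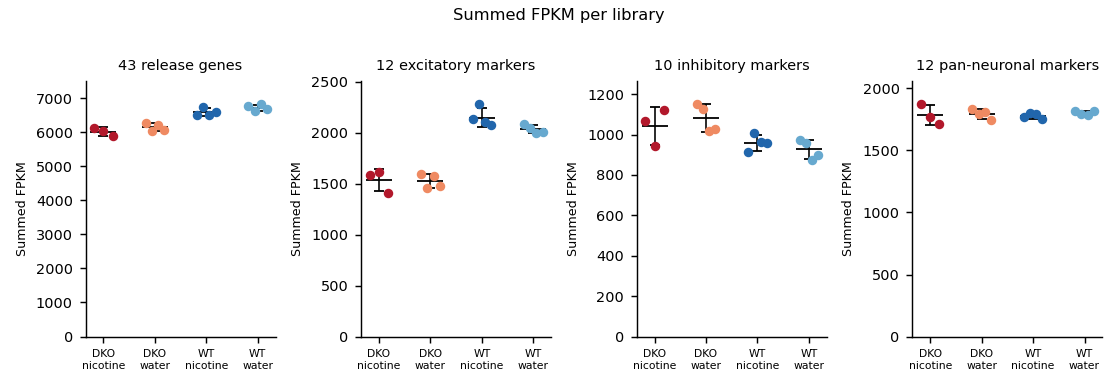
Summed FPKM in each library of the 43 members and of marker lists for excitatory, inhibitory and all neurons, with DKO nicotine, DKO water, WT nicotine and WT water from left to right. Points are libraries, long bars the mean and short bars 1 SD; the members and the excitatory markers are lower in every DKO library, and the pan-neuronal markers overlap between genotypes.

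Glial markers were higher in DKO. Of 11 microglial markers, 9 were called higher under nicotine and 11 on water, with sums of 986 to 1145 and 1046 to 1201 FPKM in DKO nicotine and DKO water against 259 to 294 and 260.3 to 302 in WT nicotine and WT water. All 8 astrocyte markers were higher in both comparisons, with sums of 1315 to 1384 and 1292 to 1409 FPKM in DKO nicotine and DKO water against 804 to 909 and 749.8 to 842 in WT nicotine and WT water. Of 9 striatal markers, 0 were called under nicotine in limma, with 0 at an unadjusted p below 0.05, and 6 were higher on water. Of 7 oligodendrocyte markers, 4 were higher under nicotine and 5 on water. The part of these cell types in the members' differences was not tested.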

How the data were processed

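Bulk RNA was measured in 15 libraries of prefrontal forebrain cortex, prepared with the TruSeq Stranded mRNA kit per the labels' protocols. The authors deposited 1 table per library with 21878 gene rows and values in FPKM, which scale reads by gene length and library size; the unit was taken from the labels and the values. The sources used here do not give the aligner, the counting tool, its strand setting or the annotation, which leaves overlapping genes and close paralogs uncertain. Whole reads could be recovered from the FPKM steps for 100% of values within 0.02 reads, giving 16334904 to 19469215 reads in genes per library, so that a gene of median length at 1 FPKM rests on 65.3 reads. No pair of libraries in a group agreed within sampling noise.

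Values were tested as log2(FPKM + 1) with limma 3.58.1 in R 4.3.3, using an intensity trend, on 12728 genes that reached 1 FPKM in 3 or more libraries. All 4 groups entered 1 fit, p-values were adjusted by Benjamini-Hochberg within each of 5 comparisons, and the same code was tested on simulated data with known fold changes. Alternatives were median-of-ratios rescaling, a pseudocount of 0.1, no filter or a filter at 5 FPKM, no intensity trend, only the groups compared, a minimum fold change, a replicate block and leaving out each library. A fit with voom on recovered reads was added after seeing the data.

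By rule, values in every library were given for up to 12 members with the smallest p among those called between genotypes and for the 5 with the smallest p in each nicotine comparison and the interaction. The rule added the most abundant member of a role that was still missing among SNAREs, synapsins, synaptotagmins, complexins, SV2, active zone scaffolds, priming factors, transporters and Rab3. Syn1 and Sv2c are also given per library and other members by means, chosen after their values were seen. Genes outside the members were up to 3 per list with the smallest p. The members and the gene lists were chosen with earlier results of these data known. Tables used Python 3.11.15 with pandas 2.3.3, scipy 1.17.1 and matplotlib 3.10.9. Of the gene names, 21727 matched the RefSeq table, which uses GRCm38.p6, and 151 did not. Promoter windows were taken from RefSeq on the same build.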

Additional observations from a re-analysis of the deposited data

Results flagged for a closer look

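In 5 of the 129 combinations of a member and a group of 4 libraries, 1 library stood apart from the others by more than Dixon's 95% limit; chance gives about 1 in 20. Syn1 was 306.7 FPKM in WT water library 3, against 285.5 to 286.4 in the other WT water libraries. Syt13 was 70.79 FPKM in WT nicotine library 3, against 73.84 to 74.29 in the others of that group. Rab3a was 298.2 FPKM in WT nicotine library 1, against 326.7 to 327.0 in the others. Doc2a was 19.59 FPKM in WT nicotine library 4, against 15.77 to 16.42, and Napb was 156.3 FPKM in the same library, against 146.5 to 147.9.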

How the results depend on the processing

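Of 48 member results called in a genotype comparison, 32 kept the call in every alternative that tested the gene, the minimum fold aside. Another 16 lost it in at least 1 such alternative, and 0 of the 48 changed direction. The 32 include both Slc17a6 results, which were not tested with the filter at 5 FPKM. A minimum difference of 0.32 on the log2 scale left 7 members and 1904 genes between genotypes under nicotine, 8 members and 1920 genes on water, and 11 genes between DKO nicotine and DKO water. In that last comparison, where 20 genes and 0 members were called, 1 member was called with median-of-ratios rescaling and 2 members and 88 genes with voom, while the fit without the intensity trend called 13 genes and that of only the groups compared 0. The interaction, with 2 genes called, gave 1 with rescaling, with no filter and without the trend.

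The library numbers do not pair the samples: correlations of same-numbered libraries ran from -0.21 to 0.16. With the replicate block, 19 members were called between genotypes under nicotine, 23 on water, 1 between DKO nicotine and DKO water (Cplx1, adjusted p = 0.0482 in limma), and 1 gene in the interaction. The block ended the nicotine calls of Rab3b (limma adjusted p = 0.0584) and Pclo (0.0534) and the water calls of Vamp2 (0.0842), Syn1 (0.0645), Sv2a (0.0608) and Syt7 (0.0592).

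Leaving out each library in turn, 16 to 24 members were called between genotypes under nicotine (3429 to 4517 genes) and 20 to 27 on water (4063 to 4932 genes), 0 between WT nicotine and WT water (17 to 28 genes), and 0 to 1 between DKO nicotine and DKO water (1 to 57 genes), the 1 being Cplx1 without DKO water library 4. For the interaction it was 0 members and 1 to 6 genes. The 20 genes called between DKO nicotine and DKO water became 6, 3 and 57 without DKO nicotine library 1, 2 and 3, 1, 9 and 1 without DKO water library 1, 2 and 3, 10, 9 and 9 without WT nicotine library 1, 2 and 3, and 9 and 8 without WT water library 1 and 4. The 2 genes of the interaction became 1 without DKO nicotine library 3 or any DKO water or WT nicotine library, and 6 without DKO nicotine library 2. The cause of these shifts was not tested. A filter at 5 FPKM left 39 members tested, without Slc17a6. Fewest reads stood behind Slc17a6 (143 in its lowest library), Sv2c (166), Doc2b (232) and Cplx3 (286).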
